A study of Arabidopsis thaliana with 12 samples.

Results

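Shoots of cdk8-1 seedlings were compared with shoots of Col-0 seedlings, both grown on plates with full sulfate (1.5 mM magnesium sulfate). CDK8 (AT5G63610, listed by RefSeq as CDKE;1) encodes the kinase of Mediator, and cdk8-1 is a mutant allele of it in the Col-0 background. Each genotype had 3 libraries, which are 6 of the 12 libraries of the study. The other 6 came from cdk8-1 and Col-0 seedlings on plates where magnesium chloride replaced the sulfate. All seedlings were Arabidopsis thaliana, were harvested at 10 days and had the shoot cut from the root. All loci with a mean of at least 1 TPM (transcripts per 1000000) over the 12 libraries were compared, which were 19127 of the 32833 loci in the deposited table. One mutant allele was studied, the number of seedlings in a library is not given in the labels, and the labels do not say whether the replicates came from separate plates. The p-values below therefore measure the spread between these libraries, which may be technical.

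Mediator is a large complex that links transcription factors bound to DNA with RNA polymerase II. Its kinase module, made of CDK8, a C-type cyclin, MED12 and MED13, docks on the rest of the complex reversibly and can activate or repress genes. In Arabidopsis the module is known for roles in jasmonate signalling, defence and the response of the nucleus to mitochondrial stress. The title of the study ties CDK8 to jasmonate, sulfur supply and chemical defence. The comparison with full sulfate addresses what differed between the genotypes on full sulfate.

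The libraries held 17508567 to 20370810 reads in genes in cdk8-1 and 19491715 to 20470389 in Col-0, so that a single read from an exonic length of 1 kilobase was worth 0.0801 to 0.0952 TPM. Levels on the log2(TPM + 1) scale correlated across loci by 0.983 to 0.990 within a genotype and by 0.971 to 0.980 between genotypes. The shoot marker RBCS1A, for the small subunit of Rubisco, stood at 18530 to 19030 TPM in cdk8-1 and 15660 to 16180 TPM in Col-0. Differences below are on the log2(TPM + 1) scale and were tested with limma over all 12 libraries, with p adjusted over all tested loci, and a locus is called where the adjusted p is under 0.05. In whole shoots, fewer cells of a type and less RNA per cell cannot be told apart.

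CDK8 itself was at 2.96, 4.01 and 4.99 TPM in the 3 cdk8-1 libraries, against 21.0, 23.1 and 24.4 TPM in the 3 Col-0 libraries. The groups did not overlap, and CDK8 fell by 2.27 ± 0.13 (standard error) on the log2(TPM + 1) scale (adjusted p = 1.53e-06). The residual level was above 0 in every cdk8-1 library. MED12 (AT4G00450) was at 20.8 to 24.2 TPM in cdk8-1 and 17.5 to 19.0 TPM in Col-0, with a log2 difference of 0.28. Its call (adjusted p = 0.0234) was lost without replicate 1 or replicate 3 of cdk8-1 or replicate 1 of Col-0, and after median-of-ratios scaling. GCT (AT1G55325), the MED13 subunit, and the neighbouring cyclin genes AT5G48640 and AT5G48630 were not called, with differences of 0.20, 0.28 and 0.11. Of 12 core and tail Mediator genes tested, 1 was called higher and 0 lower, against 8.85% and 4.84% of all tested loci. The higher count was 0 without replicate 1 or 3 of cdk8-1 or replicate 1 of Col-0, and 2 without replicate 2 of either genotype.

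Some loci separated cdk8-1 libraries from each other. Seed storage transcripts stood out in cdk8-1 replicate 1, where 16 seed storage and embryo markers summed to 251 TPM (4254 reads, 95% Poisson interval 4130 to 4380, counting error only). The sums were 4.73 and 8.26 TPM in the other cdk8-1 libraries, against 5.31, 2.37 and 1.74 TPM in Col-0. The cruciferin gene CRA1 was at 67.5, 1.52 and 1.74 TPM in cdk8-1, against 2.54, 0.687 and 0.575 TPM in Col-0. CRC, another cruciferin gene, was at 66.5, 0.526 and 0.423 TPM in cdk8-1, against 0.0446, 0 and 0 TPM in Col-0. SESA3, an albumin gene, was at 55.8, 0 and 0 TPM in cdk8-1 and at 0 in all 3 Col-0 libraries. SESA5 was at 0 in all 6 libraries. Among the 16 markers, 6 reached the mean of 1 TPM needed for testing, and they reached it through cdk8-1 replicate 1. That library also widened their spread. That 0 of them were called (1 without cdk8-1 replicate 2) therefore cannot decide whether the genotypes differ in them. Over all loci 2618 were called at adjusted p under 0.05 by limma and 5549 had an unadjusted p under 0.05. In cdk8-1 replicate 1, 11 loci reached at least 5 TPM and at least 5 times the next library, and 7 of them were seed markers. Replicate 3 of cdk8-1 had 4 such loci, which were PR2, TAT3, AIG1 and AT3G02385, and no other library had more than 2. Below, a called locus with no remark kept its call when any single library of the 6 was left out, and a count over a list is given again only where leaving out a library moved it by over 1.5 times. Other alternatives named below are median-of-ratios scaling, which sets the typical locus equal between libraries, limma voom on whole reads recovered from the table, and a fit to the 6 libraries with sulfate alone. Of the named loci that lost their call without a library, all but SIR, CYP83A1, UGT74E2 and STM also lost it in that last fit.

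**Figure D1:**
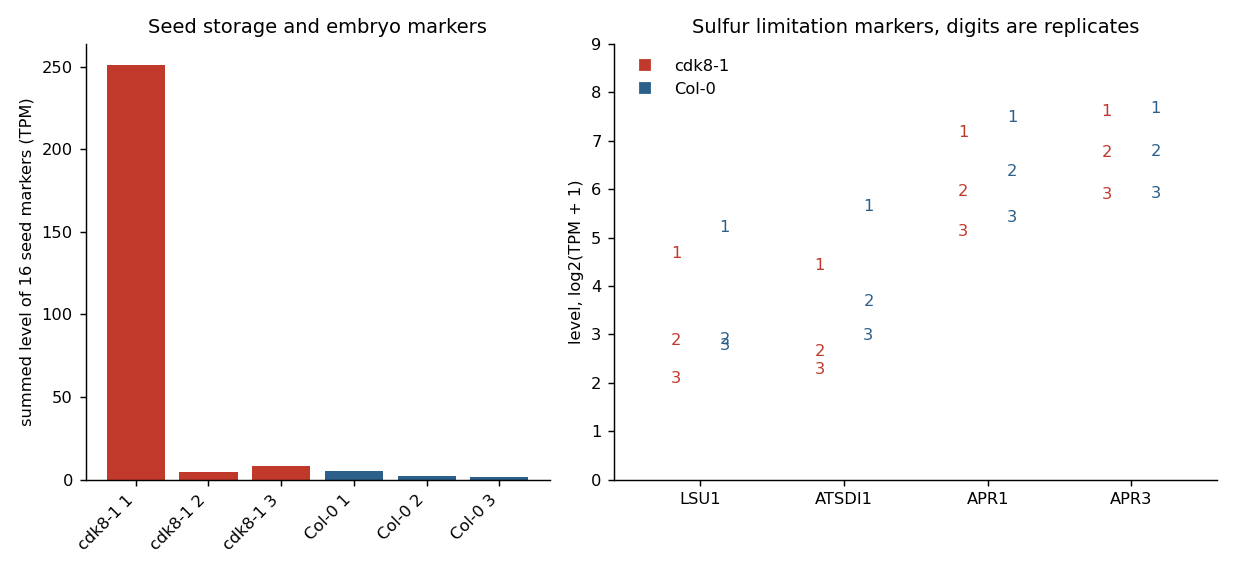
Left, summed level (TPM) of 16 seed storage and embryo markers in each library with sulfate, cdk8-1 in red and Col-0 in blue; cdk8-1 replicate 1 stands at 251 TPM and the other 5 libraries between 1.74 and 8.26 TPM. Right, level on the log2(TPM + 1) scale of 4 sulfur limitation markers, each digit being a replicate number; replicate 1 is the highest of its genotype for all 4.

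Sulfur limitation markers also varied within both genotypes. LSU1, a gene induced by low sulfur, was at 24.4, 6.29 and 3.22 TPM in cdk8-1, against 35.7, 6.46 and 5.77 TPM in Col-0. APR3, for the sulfate-reducing enzyme APS reductase, was at 193, 107 and 58.1 TPM in cdk8-1, against 203, 109 and 58.8 TPM in Col-0. The genotypes overlapped for both genes, and neither was called (log2 differences of -0.41 and -0.04). Replicate 1 was the highest in each genotype, as the plot of sulfur markers by library shows, and the part of this in the other results was not tested. For scale, LSU1 averaged 1324 TPM in cdk8-1 and 1241 TPM in Col-0 without sulfate.

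Over all tested loci, 2618 (13.7%) passed limma's test at an adjusted p under 0.05, 1693 of them higher in cdk8-1 (8.85%) and 925 lower (4.84%). Of the called loci 64.7% were higher, but 41.0% were higher after median-of-ratios scaling, when 850 loci were higher (4.44%) and 1224 lower (6.40%). With limma voom on recovered reads 781 were higher and 1239 lower, so that both of these alternatives called more loci lower than higher. The median log2 difference of all tested loci was 0.07, and 0.01 after that scaling. On both scales 848 loci were called higher and 925 lower, and 0 loci were called in opposite directions. Changes were mostly small, with a median absolute log2 difference of 0.45 among called loci. At least 2-fold changes were called for 92 higher loci (0.481%) and 193 lower loci (1.01%). Groups that did not overlap were seen for 21.1% of tested loci with cdk8-1 higher and 9.31% with it lower. When 1 library of the 6 was left out at a time, 1212 loci kept their call each time, 715 higher and 497 lower. Fits without cdk8-1 replicate 1 or replicate 3 called 1112 or 1113 loci higher.

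**Figure D2:**
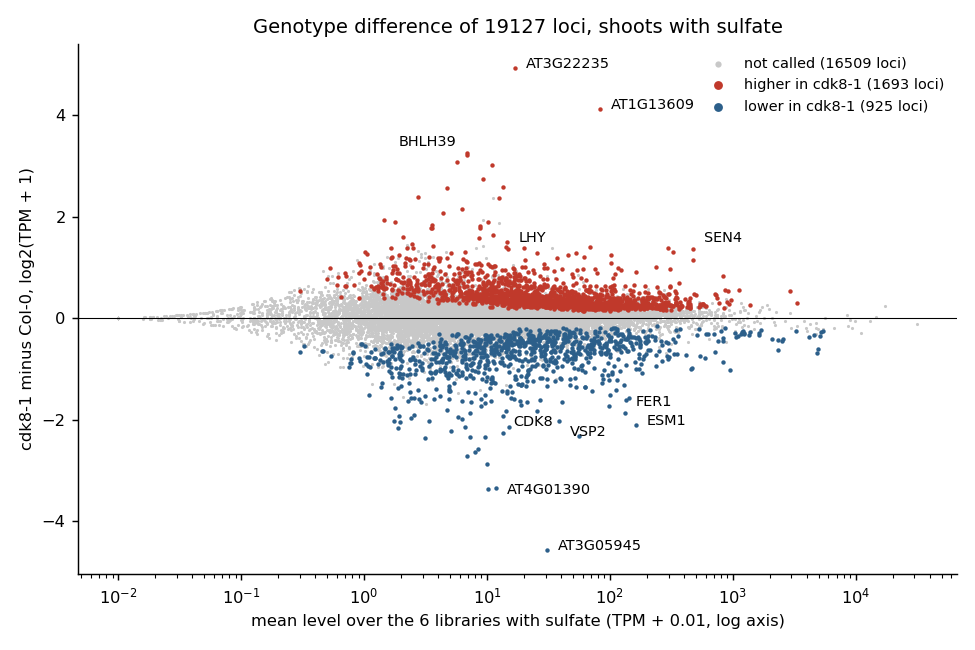
Difference between cdk8-1 and Col-0 on the log2(TPM + 1) scale for each of 19127 loci, against its mean level over the 6 libraries with sulfate (log axis). Red points are the 1693 loci called higher in cdk8-1, blue points the 925 called lower and grey points the rest; labelled loci are described in the text.

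The largest rise was that of AT3G22235, a gene for a cysteine-rich transmembrane module protein. It was at 20.9, 20.0 and 61.1 TPM in cdk8-1 (174, 145 and 441 reads) and at 0 in all 3 Col-0 libraries. With a floor of 3 reads per library, which is 0.350 to 0.373 TPM for this gene, the level in cdk8-1 was at least 94.1-fold higher. Without sulfate the gene averaged 409.6 TPM in cdk8-1 and 0.0344 TPM in Col-0.

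A pair of neighbouring genes for defensin-like proteins, small cysteine-rich peptides, were also among the 12 largest rises. AT1G13609 was at 168.5, 106 and 196 TPM in cdk8-1, against 3.84, 13.5 and 8.56 TPM in Col-0, a log2 difference of 4.13 ± 0.33 (adjusted p = 1.93e-05). AT1G13608 was at 5.82, 3.27 and 6.88 TPM in cdk8-1, against 0.126, 0 and 0.389 TPM in Col-0 (2.40, adjusted p = 5.92e-05). For both genes the lowest cdk8-1 library was above the highest Col-0 library. The long noncoding RNA AT3G05955 was at 8.93, 12.2 and 11.6 TPM in cdk8-1, against 0.442, 0.314 and 0.455 TPM in Col-0 (3.07). The snoRNA AT2G05765 (2.57) and AT2G14247 (2.58), for an uncharacterized protein, belonged to the same 12. AT2G14247 ranged widely in Col-0, at 1.099, 7.88 and 2.19 TPM, against 24.7, 15.0 and 29.7 TPM in cdk8-1.

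PR2 (AT3G57260), the pathogenesis-related beta-1,3-glucanase gene, was among the 12 largest rises with a call that rested on few libraries. It was at 4.35, 5.82 and 59.6 TPM in cdk8-1, against 1.36, 1.21 and 2.01 TPM in Col-0 (2.38 ± 0.66, adjusted p = 0.0319). Replicate 3 of cdk8-1 was far above the other cdk8-1 libraries, and the call was lost without any one of the 3 Col-0 libraries, with no filter on low values and with limma voom. AIG1, a defence-associated gene chosen after its values were seen, was at 2.19, 2.51 and 14.5 TPM in cdk8-1, against 0.816, 0.773 and 0.327 TPM in Col-0 (1.78, adjusted p = 0.0190, lost without Col-0 replicate 3 and with limma voom). The salicylate list had 2 of 23 members called higher and 0 lower, close to the 8.85% of all tested loci called higher, with a median difference of 0.02. The count was 4 without cdk8-1 replicate 2, 1 without cdk8-1 replicate 1 or 3, and 0 without Col-0 replicate 2 or 3, and 1 member was lower without Col-0 replicate 2.

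The largest fall was that of AT3G05945, a long noncoding RNA at 1.56, 1.57 and 1.58 TPM in cdk8-1, against 51.8, 62.5 and 67.2 TPM in Col-0. It fell by 4.57 ± 0.24 on the log2 scale (adjusted p = 6.38e-07). AT4G01390, a gene for a TRAF-like family protein, was at 1.05, 1.50 and 1.21 TPM in cdk8-1, against 26.7, 17.7 and 22.3 TPM in Col-0 (-3.35 ± 0.16, adjusted p = 4.36e-07). AT3G57880, for a protein with a calcium-dependent lipid-binding domain, was at 1.87, 1.94 and 1.33 TPM in cdk8-1, against 16.8, 14.8 and 14.2 TPM in Col-0 (-2.59). For all 3 loci the highest cdk8-1 library was below the lowest Col-0 library.

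Lipid transfer protein genes were among the falls. LTP3 (AT5G59320), of a family of small secreted lipid-binding proteins, was at 1.71, 0.983 and 0 TPM in cdk8-1, against 8.86, 16.5 and 32.9 TPM in Col-0 (-3.36 ± 0.45, adjusted p = 6.24e-04). Its neighbour LTP4, chosen after its values were seen, was at 0.793, 0 and 0.344 TPM in cdk8-1, against 3.09, 2.16 and 8.85 TPM in Col-0. Its call (-1.91, adjusted p = 0.0251) was lost without Col-0 replicate 3 or cdk8-1 replicate 2 or 3, and with limma voom. AT3G53980, annotated as a bifunctional inhibitor or lipid-transfer protein, was at 2.56, 1.06 and 0.118 TPM in cdk8-1, against 13.6, 8.82 and 15.0 TPM in Col-0 (-2.71).

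The other members of the 12 largest falls were the uncharacterized loci AT5G23115 (-2.88) and AT5G26270 (-2.64), MRU1 (-2.35), the noncoding RNA AT2G06355 (-2.34), AT1G15125 (-2.32) and NUDT24 (-2.37). AT1G15125, for a methyltransferase that uses S-adenosylmethionine, was the most abundant of these, at 15.5, 16.9 and 21.1 TPM in cdk8-1, against 73.4, 111.5 and 97.0 TPM in Col-0. AT2G06355 lies wholly opposite another annotated gene, so its reads may be uncertain. NUDT24, for a nudix hydrolase, lost its call with limma voom. AACT1 (AT5G61160), an acyltransferase gene chosen after its values were seen, was at 0, 0.329 and 0.0552 TPM in cdk8-1, against 2.23, 4.55 and 4.59 TPM in Col-0 (-2.05).

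Iron deficiency genes rose together. Plants short of iron switch on a small set of related bHLH factors, which in turn raise iron uptake and transport, while ferritins, which store iron in plastids, are made when iron is plentiful. Of the 16 iron genes listed and tested, 12 were called higher and 2 lower in cdk8-1, with a median log2 difference of 0.97, against 8.85% higher and 4.84% lower of all tested loci and a median of 0.07. After scaling 12 were higher and 3 lower, against 4.44% and 6.40% of all tested loci. All 16 are given here because of their values, and the list was taken up with earlier results of these data known.

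The bHLH genes of the set showed the largest differences. BHLH39 (AT3G56980) was at 13.2, 7.62 and 19.1 TPM in cdk8-1, against 0.0660, 0.914 and 0.407 TPM in Col-0 (3.25 ± 0.29, adjusted p = 5.62e-05). Its neighbour BHLH38 (AT3G56970) was at 14.2, 7.07 and 18.3 TPM in cdk8-1, against 0.148, 0.789 and 0.457 TPM in Col-0 (3.21 ± 0.29, adjusted p = 5.92e-05). BHLH100 (AT2G41240) was at 19.5, 13.2 and 26.4 TPM in cdk8-1, against 0.208, 5.31 and 0.927 TPM in Col-0 (3.03 ± 0.46, adjusted p = 0.00142). BHLH101 (AT5G04150) was at 15.6, 9.42 and 17.3 TPM in cdk8-1, against 4.44, 3.08 and 2.29 TPM in Col-0 (1.81). No Col-0 library reached the lowest cdk8-1 library for any of the 4 genes, and the second cdk8-1 library was the lowest each time. Exons of another gene on the opposite strand overlap 35.7% of BHLH38, so part of its reads may be missing from the table.

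Small uncharacterized proteins on the iron list moved in the same direction. AT1G47395 was at 18.1, 9.98 and 22.6 TPM in cdk8-1, against 1.44, 1.64 and 1.58 TPM in Col-0 (2.74). AT1G47400 was at 13.2, 6.19 and 13.1 TPM in cdk8-1, against 1.23, 2.41 and 1.17 TPM in Col-0 (2.15). AT2G30766 was at 15.2, 10.8 and 15.9 TPM in cdk8-1, against 5.18, 3.47 and 1.86 TPM in Col-0 (1.79). The 3 loci had no overlap between the genotypes.

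Regulators and transport genes of the set rose by less. BTS (AT3G18290), for an E3 ubiquitin ligase that restrains the iron response, was at 109, 89.4 and 107.5 TPM in cdk8-1, against 51.8, 62.6 and 49.6 TPM in Col-0 (0.89 ± 0.10, adjusted p = 1.78e-04). PYE (AT3G47640), for a bHLH repressor, was at 13.01, 11.3 and 12.1 TPM in cdk8-1, against 6.83, 6.47 and 4.82 TPM in Col-0 (0.91). The phloem transporter gene OPT3 (0.80) and the ferric reductase gene FRO3 (0.86) were called, but not when the spread was estimated from the 6 libraries alone. NAS4, for nicotianamine synthesis, differed by 1.04 (adjusted p = 0.0171) and lost its call without Col-0 replicate 2 or 3 or cdk8-1 replicate 1, and with a pseudocount of 0.1.

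Ferritin genes went the other way. FER1 (AT5G01600) was at 55.4, 60.5 and 51.6 TPM in cdk8-1, against 160, 247 and 223 TPM in Col-0, and fell by 1.87 ± 0.17 (adjusted p = 5.62e-05). FER4 (AT2G40300) was at 18.1, 20.9 and 20.2 TPM in cdk8-1, against 37.1, 42.8 and 42.0 TPM in Col-0 (-1.004 ± 0.10, adjusted p = 1.54e-04). FER3 and FRO7 were not called, with differences of -0.27 and 0.20, and FER3 passed after scaling (-0.34, adjusted p = 0.0479).

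Root markers were measured because the iron response is strong in roots. The summed level of 10 root markers was 928 to 1247 TPM in cdk8-1 and 696 to 824 TPM in Col-0, most of it from PYK10, a beta-glucosidase gene at 1223, 909 and 1129 TPM in cdk8-1, against 736, 818 and 675 TPM in Col-0. PYK10 was called higher (0.54, adjusted p = 0.0311), but not after scaling, with no filter on low values, or without replicate 1 or 3 of either genotype, and it was 1 of 4 root markers tested. The root hair markers COBL9, EXPA7 and EXPA18 were under 1 TPM in every library. The root iron transporter gene IRT1 was at 0.158, 0 and 2.62 TPM in cdk8-1, against 0, 0 and 0.158 TPM in Col-0. The part of root tissue in the iron result was not tested.

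**Figure D3:**
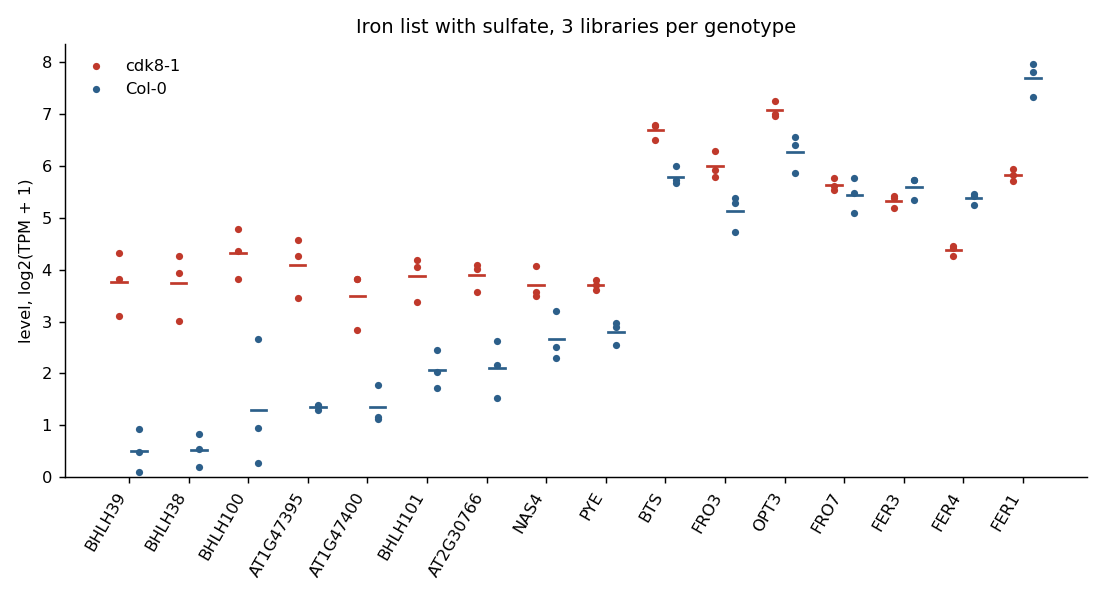
Level of the 16 iron genes on the log2(TPM + 1) scale, ordered by the difference between genotypes; points are the 3 libraries of cdk8-1 (red) and of Col-0 (blue), and bars are means. From BHLH39 on the left to OPT3 every cdk8-1 library is above every Col-0 library, FRO7 and FER3 overlap, and FER4 and FER1 lie lower in cdk8-1.

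Promoters of iron genes often held the G-box CACGTG. Among the 16 iron genes, 8 had it in the window from 250 bases before to 50 after the annotated start, against 8.75% of the 19126 tested loci with a window, 9.04% of loci called higher and 11.8% of loci called lower. The motif equals its own reverse complement. The 250 bases before the start of 3 of these genes are given because their transcripts rose, with CACGTG in capitals, 5′ to 3′ on the strand of the gene. They are RefSeq sequences of TAIR10.1, matched by locus identifier, at chr3:21085246-21085495 (minus strand) for BHLH38, chr2:17199455-17199704 (minus strand) for BHLH100 and chr3:6273716-6273965 (plus strand) for BTS.
BHLH38: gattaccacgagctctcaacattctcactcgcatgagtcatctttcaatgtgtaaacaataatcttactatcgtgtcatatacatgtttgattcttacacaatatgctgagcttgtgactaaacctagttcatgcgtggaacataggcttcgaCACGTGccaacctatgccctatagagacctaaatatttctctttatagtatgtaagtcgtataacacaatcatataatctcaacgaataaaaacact
BHLH100: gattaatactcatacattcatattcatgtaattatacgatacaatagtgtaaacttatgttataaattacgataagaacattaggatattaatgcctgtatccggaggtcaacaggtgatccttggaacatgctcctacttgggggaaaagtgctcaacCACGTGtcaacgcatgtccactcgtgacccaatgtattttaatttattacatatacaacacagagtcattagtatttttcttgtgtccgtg
BTS: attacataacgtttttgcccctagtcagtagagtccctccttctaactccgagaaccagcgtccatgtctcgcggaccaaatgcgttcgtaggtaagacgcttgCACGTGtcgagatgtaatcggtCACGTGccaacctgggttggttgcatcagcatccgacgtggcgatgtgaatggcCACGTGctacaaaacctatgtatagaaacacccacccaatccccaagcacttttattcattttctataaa
BHLH38 had 1 match, starting at position -97 from the start, BHLH100 had 1 at -91 and BTS had 3 at -146, -124 and -70. The window of BHLH39, whose level was much like that of BHLH38, is not shown here. These letters describe the windows and say nothing of what binds them.

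The genes called in each of 3 jasmonate lists were lower in cdk8-1. The bHLH regulators MYC3 and MYC4 are on another list, described below, and were called higher. Jasmonate is a lipid hormone of defence and wounding, made in plastids and peroxisomes, and JAZ proteins repress its target genes until the hormone removes them. Of 13 synthesis genes tested, 8 were called lower and 0 higher, with a median of -0.48. Of 18 repressor and catabolism genes 5 were lower and 0 higher (median -0.49), and of 12 response genes 4 were lower and 0 higher (median -0.14). Over all tested loci 4.84% were lower. The repressor count was 9 without Col-0 replicate 3 or cdk8-1 replicate 1, and the response count was 2 without Col-0 replicate 1 or 2 or cdk8-1 replicate 2. With the spread estimated from the 6 libraries alone, the 3 counts were 2, 0 and 1.

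For synthesis, LOX3 (AT1G17420), a lipoxygenase gene of the first step, was at 8.67, 4.99 and 5.18 TPM in cdk8-1, against 19.9, 15.0 and 13.5 TPM in Col-0 (-1.25 ± 0.19, adjusted p = 0.00145). OPR3 (AT2G06050), for the peroxisomal reductase of the pathway, was at 47.1, 34.0 and 48.9 TPM in cdk8-1, against 73.3, 68.4 and 69.4 TPM in Col-0 (-0.70 ± 0.11, adjusted p = 0.00142). Both held in each alternative that was run. LOX4 (-1.88), OPCL1 (-1.19), AOC2 (-0.49) and LOX2 (-0.48) were also called, but not in the fit to the 6 libraries alone. LOX4 spread most inside the groups, at 4.00, 1.61 and 1.56 TPM in cdk8-1, against 20.4, 10.3 and 5.82 TPM in Col-0.

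The repressor genes JAZ6 (-0.81) and JAZ9 (-0.80), the gene CYP94C1 for oxidation of the active hormone (-1.53) and the dioxygenase gene AT5G05600 (-0.95) were called lower, and none was called in the fit to the 6 libraries alone. JAZ9 was the most abundant of them, at 106, 72.1 and 77.2 TPM in cdk8-1, against 181, 141 and 125 TPM in Col-0. CYP94C1 was at 1.89, 0.425 and 0.998 TPM in cdk8-1, against 7.92, 4.26 and 3.26 TPM in Col-0.

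Among response genes, VSP2 (AT5G24770), a vegetative storage protein gene used as a jasmonate marker, was at 19.6, 10.5 and 13.6 TPM in cdk8-1, against 74.4, 43.1 and 69.9 TPM in Col-0. It fell by 2.03 ± 0.31 (adjusted p = 0.00133), and the groups did not overlap. NAC019 (-0.97), for a jasmonate-induced NAC factor, lost its call in the fit to the 6 libraries alone and with limma voom. TAT3, a tyrosine aminotransferase gene, was at 0.240, 1.18 and 18.3 TPM in cdk8-1, against 0.568, 0.534 and 0.757 TPM in Col-0, and was not called.

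Glucosinolates are sulfur-rich defence compounds, made from methionine (aliphatic) or tryptophan (indolic) and cleaved by myrosinases when tissue is damaged. Of 11 genes of indolic glucosinolate synthesis tested, 5 were called lower in cdk8-1, 0 higher and 6 not called, with a median of -0.66, against 4.84% lower of all tested loci. CYP83B1 (AT4G31500), for an early core step, was at 95.1, 55.3 and 72.8 TPM in cdk8-1, against 155.5, 145 and 123 TPM in Col-0 (-0.94 ± 0.17, adjusted p = 0.00451). CYP81F2 (AT5G57220), for modification of the indole ring, was at 10.0, 7.54 and 6.57 TPM in cdk8-1, against 30.7, 40.3 and 18.0 TPM in Col-0 (-1.71 ± 0.24, adjusted p = 9.14e-04). GSTF10, a glutathione transferase gene, was at 145 to 153 TPM in cdk8-1 and 228 to 263 TPM in Col-0 (-0.70). CYP79B3 (-0.65), for the entry step from tryptophan, was not called in the fit to the 6 libraries alone. Both subunit genes of anthranilate synthase, which starts tryptophan synthesis, were lower too (ASA1 -0.55, ASB1 -0.51), again not in the fit to the 6 libraries alone.

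**Figure D4:**
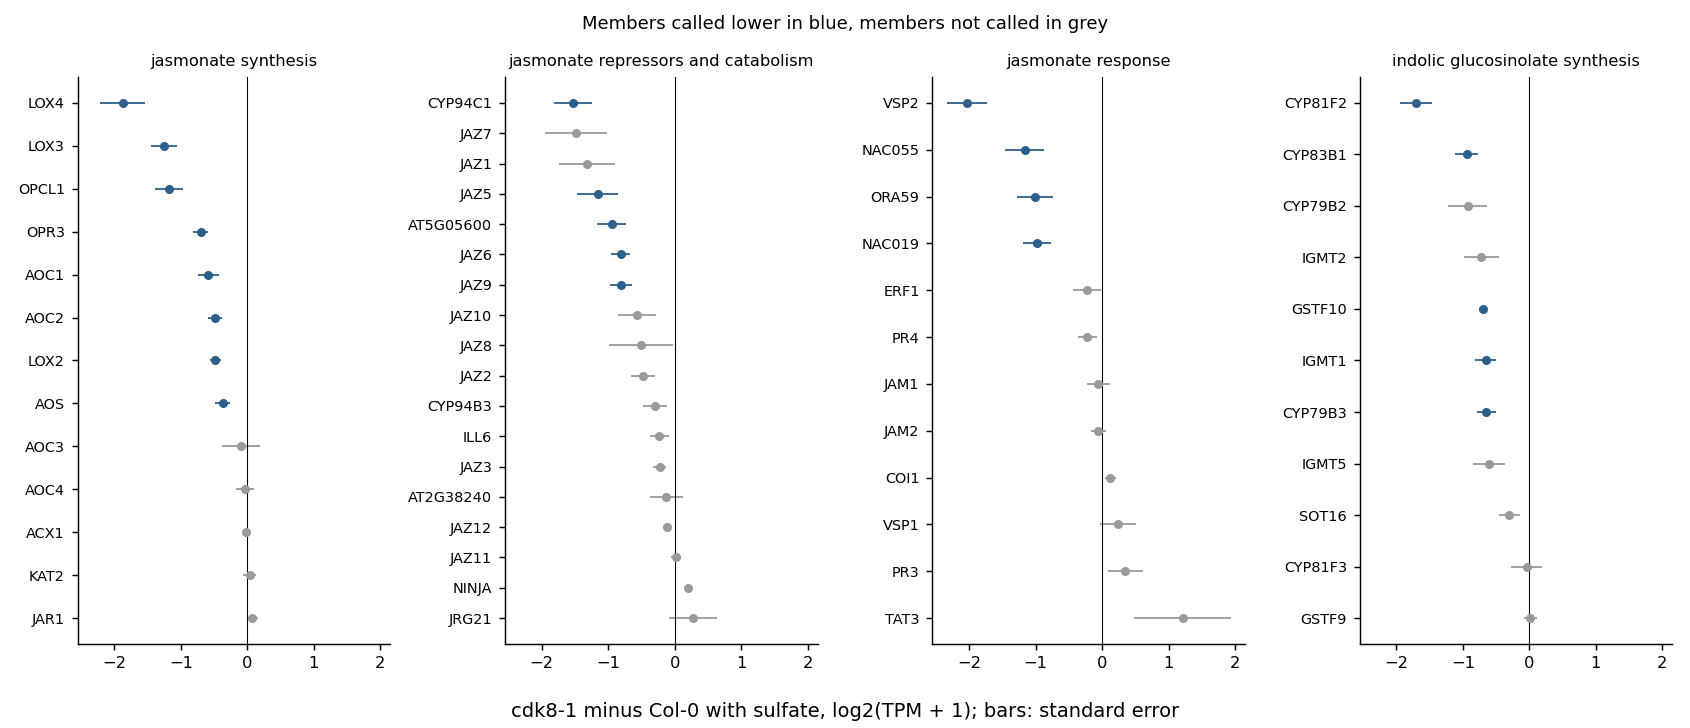
Difference between cdk8-1 and Col-0 with sulfate on the log2(TPM + 1) scale for the tested members of 3 jasmonate lists and of indolic glucosinolate synthesis; bars are standard errors. Blue points are called lower, grey points are not called, and no member of the 4 lists is called higher.

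Of the MYB regulators of glucosinolates, MYB51 (AT1G18570), an activator of indolic genes, was at 10.1, 7.20 and 7.25 TPM in cdk8-1, against 29.0, 22.5 and 15.9 TPM in Col-0, and fell by 1.33 ± 0.19 (adjusted p = 0.00102). MYB28, the main aliphatic activator, was at 41.8, 31.0 and 36.3 TPM in cdk8-1, against 31.5, 24.2 and 23.9 TPM in Col-0, and was not called (0.44, adjusted p = 0.0510). MYB29 (-0.53), MYB34 (0.10) and MYB122 (-0.05) were not called, and MYB76 was under the level tested. MYB122 was at 0.109 TPM or less in all 6 libraries. MYC3, a bHLH gene of the regulator list, was called higher (0.31, adjusted p = 0.011), but not in the fit to the 6 libraries alone. MYC4 (0.43, adjusted p = 0.0419) lost its call after scaling, with limma voom, and without any single library except Col-0 replicate 1. Of 7 regulators tested, 2 were called higher and 1 lower, against 8.85% and 4.84% of all tested loci. The higher count was 1 without replicate 3 of either genotype, cdk8-1 replicate 1 or Col-0 replicate 2. Aliphatic synthesis genes had 1 of 24 called higher and 4 lower (median -0.19), against 8.85% higher and 4.84% lower of all tested loci, and the lower count was 0 without cdk8-1 replicate 2 or 3 or Col-0 replicate 1 or 2. Without Col-0 replicate 1, 2 were called higher. The aliphatic gene that rose, MAM3 (AT5G23020), for elongation of the methionine side chain, was at 77.6, 63.9 and 69.7 TPM in cdk8-1, against 41.8, 40.9 and 27.0 TPM in Col-0 (0.95 ± 0.15, adjusted p = 0.00184).

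Breakdown and transport genes were called in both directions, 2 of 13 higher and 3 lower, against 8.85% higher and 4.84% lower of all tested loci. ESM1 (AT3G14210), whose product shifts glucosinolate hydrolysis toward isothiocyanates, was at 71.6, 60.6 and 49.5 TPM in cdk8-1, against 290, 319 and 190.0 TPM in Col-0 (-2.10 ± 0.18, adjusted p = 3.62e-05). NSP1 (AT3G16400), for a nitrile-specifier protein, was at 449, 377 and 402 TPM in cdk8-1, against 197, 218 and 206 TPM in Col-0 (0.98 ± 0.11, adjusted p = 2.38e-04). The myrosinase genes TGG1 and TGG2 differed in direction. TGG1 (AT5G26000) was at 3352, 3458 and 3565 TPM in cdk8-1, against 2210.0, 2406 and 2561 TPM in Col-0 (0.53). TGG2 (AT5G25980) was at 291, 325 and 294 TPM in cdk8-1, against 595, 565 and 661 TPM in Col-0 (-0.998 ± 0.12, adjusted p = 2.73e-04). Both held after scaling, at 0.46 and -1.07.

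Of 20 sulfur limitation markers 0 were called higher (1 without cdk8-1 replicate 2) and 3 lower, against 8.85% higher and 4.84% lower of all tested loci, with a median of -0.17. SULTR2;1, a vascular sulfate transporter gene, was at 80.5, 71.8 and 67.5 TPM in cdk8-1, against 108, 98.3 and 110 TPM in Col-0 (-0.52, adjusted p = 0.00380). GGCT2;1, for glutathione breakdown, was at 8.90, 3.02 and 2.34 TPM in cdk8-1, against 22.5, 10.8 and 10.0 TPM in Col-0, and its call (-1.50, adjusted p = 0.0143) was lost without cdk8-1 replicate 2 or 3. BGLU28 (-0.76) was under 2 TPM in all 6 libraries and was not called in the fit to the 6 libraries alone. Without sulfate GGCT2;1 and BGLU28 averaged 858 and 2480 TPM in Col-0. SULTR2;1 averaged 61.2 TPM there, against 105 TPM in Col-0 with sulfate. The lower level of SULTR2;1 in cdk8-1 is therefore not that of a gene raised by sulfate withdrawal in these shoots. SDI1 (ATSDI1), a repressor gene of glucosinolate synthesis, was at 20.5, 5.21 and 3.84 TPM in cdk8-1, against 49.0, 11.8 and 6.86 TPM in Col-0, and was not called (-0.99 ± 0.60). Among 18 genes of sulfate assimilation, cysteine and glutathione synthesis, 1 was called higher and 3 lower, beside the same shares over all loci, and the higher count was 0 without replicate 2 or 3 of either genotype. The ATP sulfurylase gene APS1 was at 478, 438 and 426 TPM in cdk8-1, against 598, 563 and 537 TPM in Col-0 (-0.34, adjusted p = 0.00577). APS3 (-0.75) was lost in the fit to the 6 libraries alone and the sulfite reductase gene SIR (-0.34) without cdk8-1 replicate 3.

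Genes of abscisic acid, drought and cold had 6 of 16 called lower and 0 higher, against 4.84% lower of all tested loci, with a median of -0.67. The count was 3 without Col-0 replicate 3 or cdk8-1 replicate 2 or 3. RAB18 (AT5G66400), a dehydrin gene induced by abscisic acid, was at 11.1, 9.11 and 6.12 TPM in cdk8-1, against 26.1, 28.8 and 30.7 TPM in Col-0 (-1.62 ± 0.23, adjusted p = 9.33e-04). RD22, a drought-responsive gene, was at 177 to 185 TPM in cdk8-1 and 282 to 317 TPM in Col-0 (-0.72). The phosphatase gene HAI1 (-0.95) was not called in the fit to the 6 libraries alone.

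Clock genes were called in both directions, 3 of 14 higher and 2 lower, against 8.85% higher and 4.84% lower of all tested loci. Each count was 1 without any one of the libraries except Col-0 replicate 1, where 3 were called higher and 4 lower. LHY (AT1G01060), a gene of the morning loop, was at 23.0, 20.4 and 21.1 TPM in cdk8-1, against 11.8, 6.69 and 5.86 TPM in Col-0 (1.36 ± 0.22, adjusted p = 0.00231). GI (AT1G22770), an evening gene, was at 21.5, 19.5 and 19.5 TPM in cdk8-1, against 26.7, 30.4 and 29.9 TPM in Col-0 (-0.50 ± 0.07, adjusted p = 6.73e-04). The time of day of harvest is not given in the labels.

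The evening element AAAATATCT, the motif through which clock factors such as LHY act, was in the promoter window of 7.14% of loci called lower and 2.30% of loci called higher, on either strand, against 3.02% of tested loci. Among loci lower by at least 2-fold 18 of 193 had it (9.33%). LOX3 and RAB18, described above, are shown as examples picked after their values were seen, with AAAATATCT or its reverse complement in capitals in the 250 bases before the start. They are RefSeq sequences of TAIR10.1 at chr1:5977073-5977322 (plus strand) and chr5:26519448-26519697 (minus strand).
LOX3: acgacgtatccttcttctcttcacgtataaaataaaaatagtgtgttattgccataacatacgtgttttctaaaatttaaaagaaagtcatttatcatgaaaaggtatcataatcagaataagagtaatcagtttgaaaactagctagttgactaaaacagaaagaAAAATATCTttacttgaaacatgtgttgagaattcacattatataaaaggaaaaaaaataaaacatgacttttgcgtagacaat
RAB18: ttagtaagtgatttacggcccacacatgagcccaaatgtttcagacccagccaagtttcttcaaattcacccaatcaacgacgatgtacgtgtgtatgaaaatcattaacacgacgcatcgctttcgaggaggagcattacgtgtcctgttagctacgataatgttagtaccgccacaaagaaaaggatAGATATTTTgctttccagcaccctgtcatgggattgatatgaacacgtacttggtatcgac
The match starts at -84 in LOX3 and at -61 in RAB18. These letters say nothing of what binds them, and the part of LHY in the lower levels was not tested. The ethylene-response motif GCCGCC was in 3.14% of loci called lower and 2.24% of loci called higher, against 2.76% of tested loci. The W-box cores TTGACC and TTGACT were in 13.6% and 24.0% of loci called lower, against 14.5% and 21.9% of tested loci. The motif GAGACA was in 14.6% of loci called lower, against 13.5%. ACGTGTC, which overlaps CACGTG in CACGTGTC, was in 5.95% of loci called lower and 5.08% of loci called higher, against 4.94%.

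Of 33 nuclear photosynthesis genes 9 were called lower and 1 higher, against 4.84% lower and 8.85% higher of all tested loci, with a median of -0.16. After scaling 13 were lower and 1 higher, against 6.40% and 4.44% of all tested loci. The groups did not overlap for 23 members with cdk8-1 lower, against 9.31% of all tested loci. PSAF, for a subunit of photosystem I, was at 3574, 3882 and 3591 TPM in cdk8-1, against 5675, 5992 and 6203 TPM in Col-0 (-0.69 ± 0.07, adjusted p = 1.39e-04). PSBQ-2 (-0.41) and PSAG (-0.34) were also lower, and exons on the opposite strand overlap 61.4% of PSAG. The Rubisco gene RBCS1B was the member called higher, at 1057, 1045 and 990 TPM in cdk8-1, against 820, 699 and 595 TPM in Col-0 (0.56, adjusted p = 0.00465). Rubisco small subunit genes are near-identical copies, so reads may be split between them.

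Auxin and growth genes had 4 of 13 called lower and 0 higher (1 without Col-0 replicate 1), against 4.84% lower of all tested loci, with a median of -0.63. IAA19 (AT3G15540), an auxin-induced repressor gene of growth, was at 5.38, 4.12 and 5.84 TPM in cdk8-1, against 14.7, 10.99 and 13.6 TPM in Col-0 (-1.21 ± 0.17, adjusted p = 8.03e-04). IAA6, of the same family, was at 0.0960, 0.331 and 0.777 TPM in cdk8-1, against 1.78, 2.29 and 3.08 TPM in Col-0 (-1.28). Of 12 senescence genes, 1 was called higher (2 without cdk8-1 replicate 2 and 3 without Col-0 replicate 2) and 3 lower, against 8.85% higher and 4.84% lower of all tested loci. SEN4 (XTH24), a cell wall xyloglucan gene, was at 514, 679 and 842 TPM in cdk8-1, against 152, 348 and 327 TPM in Col-0 (1.36 ± 0.26, adjusted p = 0.00541). The senescence factor gene NAP (-1.24) and the chlorophyll b reductase gene NYC1 (-0.44) fell. None of these 3 was called in the fit to the 6 libraries alone.

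Of 19 phenylpropanoid and flavonoid genes 1 was called higher and 1 lower, against 8.85% higher and 4.84% lower of all tested loci. The higher count was 3 without Col-0 replicate 1 and 0 without any other single library, and the lower count was 3 without Col-0 replicate 3. MYBL2, a repressor of anthocyanin synthesis, was at 63.7, 62.5 and 53.2 TPM in cdk8-1, against 133, 134 and 128 TPM in Col-0 (-1.13, adjusted p = 0.0113). CDK8 is known to act in the mitochondrial stress response. Of 10 genes of this response and alternative respiration, 2 were called higher and 2 lower, against 8.85% and 4.84% of all tested loci. Their median was 0.13, and UGT74E2, a member called lower, was under 1 TPM in all 6 libraries. The higher count was 0 without cdk8-1 replicate 1 or 3 and 1 without Col-0 replicate 3, and the lower count was 1 without cdk8-1 replicate 1 or Col-0 replicate 2. The alternative oxidase gene AOX1A was at 23.4, 20.5 and 21.2 TPM in cdk8-1, against 30.7, 32.4 and 24.7 TPM in Col-0 (-0.41, adjusted p = 0.00898, not in the fit to the 6 libraries alone). NDB2, for an alternative NAD(P)H dehydrogenase, was at 8.74, 6.60 and 8.95 TPM in cdk8-1, against 6.54, 5.23 and 4.41 TPM in Col-0 (0.51, adjusted p = 0.0154), and its call was lost without cdk8-1 replicate 1 or 3. NAC017, for a NAC factor of that response, was called higher (0.24, adjusted p = 0.0312), but not after scaling, with limma voom, or without replicate 1 or 3 of either genotype. The cell cycle kinase gene CDKB1;1 (0.69, not in the fit to the 6 libraries alone) was 1 of 15 cell division genes called. Of 12 phosphate starvation genes 0 were called. Over all tested loci 13.7% were called in either direction. The actin gene ACT2, often used as a reference, was at 371, 382 and 401 TPM in cdk8-1, against 272.5, 306 and 310 TPM in Col-0 (0.38, adjusted p = 0.00246, and 0.30 after scaling). GAPC1 (0.25, adjusted p = 0.0475) was the other of 8 reference genes called higher, against 8.85% of all tested loci. GAPC1 lost its call after scaling, with limma voom and without any single library except Col-0 replicate 1.

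The same genotypes were also measured without sulfate, in separate libraries. Both comparisons took the spread of each locus from all 12 libraries, so their calls are not independent. There 26.3% of tested loci were called higher in cdk8-1 and 15.0% lower. Of the 1693 loci called higher with sulfate, 683 (40.3%) were also called higher without it and 190 (11.2%) were called lower. Of the 925 called lower with sulfate, 368 (39.8%) were also called lower without it and 201 (21.7%) were called higher. The difference between the 2 genotype effects was tested as an interaction. It was called for 712 of the loci higher and 515 of those lower with sulfate, against 27.0% of all tested loci. These loci were picked by the difference with sulfate, which is itself a part of the interaction. The comparison with 27.0% therefore cannot show that they depend more on supply.

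CDK8 and a set of loci were called in the same direction at both supplies. The log2 difference of CDK8 was -2.40 without sulfate and its interaction was 0.13 (adjusted p = 0.650). FER1 fell by 1.76 on the log2 scale without sulfate (interaction adjusted p = 0.754), ESM1 by 1.84 (0.493) and MYB51 by 1.44 (0.801). LOX3 (-1.08 without sulfate), JAZ6 (-0.74) and CYP81F2 (-2.21) were also called lower at both supplies, with interactions that were not called. A p that misses the threshold does not show that the effects were equal.

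Other loci differed in one supply or changed direction. BHLH39 averaged 0.557 TPM in cdk8-1 and 0.102 TPM in Col-0 without sulfate (0.49, adjusted p = 0.202), and the interaction was 2.76 (adjusted p = 3.82e-04). BTS averaged 54.0 TPM in cdk8-1 and 57.4 TPM in Col-0 without sulfate (-0.09), with an interaction of 0.98 (adjusted p = 2.22e-04). VSP2 was lower in cdk8-1 with sulfate and higher without it, where it averaged 93.8 TPM in cdk8-1 and 33.6 TPM in Col-0 (1.36, adjusted p = 0.00346). SEN4 was higher in cdk8-1 with sulfate and lower without it (-0.95, adjusted p = 0.0114). PSAF was lower in cdk8-1 with sulfate and higher without it (1.01, adjusted p = 4.08e-07). TGG2 was likewise higher without sulfate on the log2(TPM + 1) scale (0.55), but at only 0.552 TPM in cdk8-1 and 0.0516 TPM in Col-0.

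**Figure D5:**
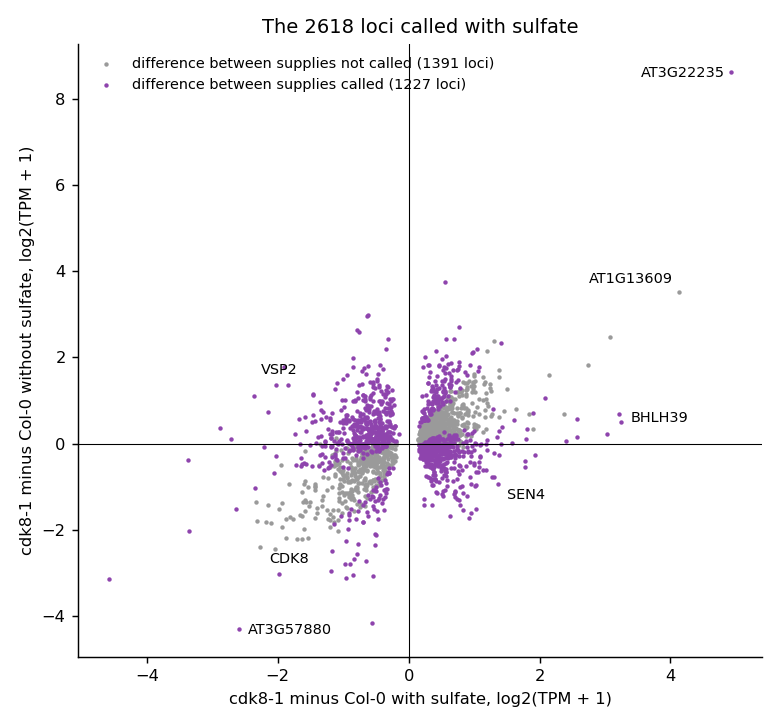
Difference between cdk8-1 and Col-0 on the log2(TPM + 1) scale without sulfate against that with sulfate, for the 2618 loci called with sulfate. Purple points are loci whose 2 differences differed by the interaction test and grey points the rest; CDK8 lies low on both axes, BHLH39 is far right and near 0 on the vertical axis, and VSP2 and SEN4 lie in the quadrants of opposite sign.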

How the data were processed

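RNA of shoots was sequenced in 12 libraries, 3 per genotype and sulfate supply. The authors deposited a table of TPM (transcripts per 1000000) with 1 column per library and 32833 loci. The submitters' processing notes name DESeq2 1.46, featureCounts 2.0.8 and STAR 2.7.11b without saying what each did. The genome build is not given in the sources used here. Each TPM column sums to 1000000, except Col-0 with sulfate replicate 3 (1004125.4). Whole reads were recovered from the deposited TPM and RefSeq TAIR10.1 exonic lengths (99.4% of values above 0 whole to within 0.01 read), which gave 17508567 to 25274347 reads in genes per library. Intervals and floors cover counting error only.

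Loci with a mean of at least 1 TPM entered a fit of log2(TPM + 1) in limma 3.58.1 (R 4.3.3), with trended moderation, 4 group means and 8 residual degrees of freedom. Tests were two-sided, with Benjamini-Hochberg adjustment over 19127 loci and a threshold of 0.05. A log2 difference on this scale understates changes of low genes. Exact permutation of 3 against 3 libraries cannot go below p = 0.1. The interaction is the difference with sulfate minus that without. Python 3.11.15 was used for summaries, and the fit was tested on simulated data.

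Named loci are CDK8, the 12 largest rises and falls that were called with no overlap, up to 4 called members per list by smallest p (2 by level where none was called), the kinase module, the glucosinolate MYB genes and the seed markers. Further iron genes, LOX2, AOC2, LSU1, SDI1, APR3, TAT3, AACT1, LTP4 and AIG1 were chosen after their values were seen. Members, lists and motifs were chosen with earlier results of these data known. Names follow RefSeq (99.1% of loci matched). Alternatives were no filter, a minimum of 5 TPM, a pseudocount of 0.1, median-of-ratios scaling, the 6 libraries alone, a replicate block, limma voom on recovered reads, and each library left out.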

Additional observations from a re-analysis of the deposited data

Results flagged for a closer look

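The loci below were picked out because their genotype difference with sulfate and that without differed by limma's interaction test at an adjusted p under 0.05. Of all tested loci 27.0% did so. The value given is the log2 difference between cdk8-1 and Col-0 with sulfate minus the same difference without sulfate, on the log2(TPM + 1) scale, and loci rare in one supply have little room to differ there.

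Among iron genes the values were 2.76 for BHLH39, 2.52 for BHLH38, 2.80 for BHLH100, 1.49 for BHLH101, 1.67 for AT2G30766, 1.1 for PYE, 0.98 for BTS and 0.57 for FER3. They were negative for NAS4 (-1.16) and FRO7 (-1.22), whose log2 differences without sulfate were 2.2 and 1.41. The 4 bHLH genes and AT2G30766 averaged under 1 TPM in both genotypes without sulfate.

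Among the largest rises and falls the values were -3.70 for AT3G22235, 2.01 for AT2G14247, 2.42 for AT2G05765 and 2.34 for AT1G13608. They were -1.43 for AT3G05945, -2.99 for LTP3, -3.69 for LTP4, -1.33 for AT4G01390, -3.24 for AT5G23115, -2.81 for AT3G53980 and -1.12 for AT5G26270. They were 1.72 for AT3G57880, -3.48 for NUDT24, -1.31 for MRU1, -1.38 for AACT1 and 2.33 for AIG1. NUDT24 was lower in cdk8-1 with sulfate and higher without it (1.11, adjusted p = 0.0289).

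Among jasmonate genes the values were -0.86 for OPR3, -1.32 for OPCL1, -0.45 for AOC2, -0.98 for JAZ9, -3.39 for VSP2 and 1.82 for NAC019. VSP2 differed by -2.03 with sulfate and by 1.36 without it. For glucosinolate and tryptophan genes they were 1.14 for MAM3, -0.36 for GSTF10, 2.37 for MYB122, -1.14 for NSP1, -1.54 for TGG2, 0.91 for ASA1 and 0.83 for ASB1. MYB122 averaged 0.696 TPM in cdk8-1 and 8.11 TPM in Col-0 without sulfate, and was near 0 in both genotypes with sulfate.

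For sulfur genes the values were -0.55 for SULTR2;1, -1.47 for GGCT2;1 and 0.57 for SIR. Photosynthesis genes had -1.71 for PSAF, -1.58 for PSAG, -0.66 for RBCS1B and -1.36 for PSBQ-2. Of the 33 members tested, 33 were called higher in cdk8-1 without sulfate, against 26.3% of all tested loci. The values were -1.14 for RAB18, -2.40 for RD22 and 1.31 for HAI1, -0.32 for GI and 1.2 for LHY, and -1.42 for IAA19 and -0.98 for IAA6. They were 2.30 for SEN4, 0.45 for NYC1 and 0.98 for AOX1A.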

How the results depend on the processing

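No called difference of a named locus changed sign under the alternatives run, but the balance of calls turned from mostly higher to mostly lower under 2 of them. The fit to the 6 libraries with sulfate alone called 1183 loci, 661 higher and 522 lower, against 2618, 1693 and 925. After median-of-ratios scaling 850 loci were higher and 1224 lower, and with limma voom on recovered reads 781 and 1239. The higher count was 1112 to 1525 when each library was left out. The count of at least 2-fold changes was 481 with a pseudocount of 0.1, against 285. The share of loci called lower with sulfate that were also lower without it was 41.3% to 46.6% with each library left out. The seed marker sum of cdk8-1 replicate 1 was 282.8 after scaling. A fit with the replicate number as a block called 3220 loci. Same-numbered libraries with sulfate deviated from their group means with correlations of 0.305, -0.000 and 0.157. Between differently numbered libraries of the 2 genotypes the correlations were -0.240 to 0.108, and 4 of 6 libraries correlated best with their own number. The main fit has no block because the labels do not say that the numbers pair libraries. An effect shared by libraries of the same number was not tested. Of 110 named called loci, the block kept 110, the 6 libraries alone 61, scaling 99, limma voom 95, a pseudocount of 0.1 106, no filter 97, and leaving out a library 87 to 96, and 100 of 100 remained with a minimum of 5 TPM. For changes other than these the cause was not tested. Called in every alternative in which they were tested were 840 loci, 461 higher and 379 lower. Loci under the minimum of 5 TPM were not tested in that alternative and were kept in this count. Low levels rest on few reads, which limits the precision of their fold changes.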

Other observations

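Some histone genes were called higher in cdk8-1 with sulfate. Of 29 tested loci that RefSeq calls histone superfamily proteins, 12 were called higher and 1 lower, with a median log2 difference of 0.28, against 8.85% higher and 4.84% lower of all tested loci. After median-of-ratios scaling the counts were 7 and 2, against 4.44% and 6.40% of all tested loci. With each library left out 8 to 15 were higher and 1 lower. Without sulfate 17 were higher and 4 lower, against 26.3% and 15.0% of all tested loci.

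ERF subfamily B genes encode AP2-domain factors that act in ethylene and jasmonate responses. Of 41 tested, 0 were called higher and 10 lower with sulfate (median -0.24), against 8.85% and 4.84% of all tested loci. The counts were 0 and 10 after scaling, and 0 to 1 higher and 6 to 11 lower with each library left out. Without sulfate 4 were higher and 20 lower, against 26.3% and 15.0% of all tested loci. ERF6 (AT4G17490) was at 10.6, 11.4 and 7.89 TPM in cdk8-1, against 68.8, 30.6 and 24.6 TPM in Col-0 (-1.82, adjusted p = 0.00145). Of 76 TIR-NBS immune receptor genes 0 were called higher and 10 lower (median -0.03), beside 8.85% and 4.84% of all tested loci. After scaling 14 were lower, beside 6.40% of all tested loci. With each library left out 0 to 1 were higher and 7 to 11 lower. Without sulfate 14 were higher and 18 lower, beside 26.3% and 15.0% of all tested loci. All 3 families and ERF6 were chosen after their values were seen, and these counts are a description.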
